A study of Rattus norvegicus with 6 samples.

Results

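The genes described here encode 10 proteins that act on RNA bound by a gapmer or that bind gapmers themselves. They are ribonuclease H1 (Rnaseh1), the subunits of ribonuclease H2 (Rnaseh2a, Rnaseh2b and Rnaseh2c), the exonucleases Xrn1 and Xrn2, the nuclear exosome nuclease Exosc10, and the paraspeckle proteins Nono, Sfpq and Pspc1. They were taken from the deposited table of 40456 genes by their symbols, chosen for function, though with earlier results of these data known. All 10 were present and passed the filter on low counts. The cells were H9c2 (2-1), a rat cardiomyoblast line labelled wild type, kept for 5 days in medium with 1% serum and 1 µM retinoic acid. The cells of 3 libraries had received a negative control gapmer and those of the other 3 a gapmer aimed at Tug1, a long non-coding RNA, each at 25 nM for 24 h, so both groups carried a gapmer and no untreated cells were compared. The libraries were stranded and made from 500 ng of RNA after poly-A selection.

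A gapmer is a short antisense oligonucleotide with modified, tight-binding ends and a DNA centre. RNase H recognises the DNA paired with RNA and cuts the RNA strand, and RNase H1 is known as the main enzyme for this in cells. The fragment left with a free 5′ end is then degraded by XRN2 in the nucleus or XRN1 in the cytoplasm, and the other fragment by the exosome, whose nuclear form holds the nuclease EXOSC10. NONO, SFPQ and PSPC1 are related proteins that pair with each other, build paraspeckles on the long RNA Neat1 in the nucleus, and are known to bind gapmers with phosphorothioate backbones. Neat1 itself was not analysed here.

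Both oligonucleotides are shown because they are the only difference between the groups that the labels give. They are written 5′ to 3′ as DNA letters, with no capitals because the labels do not say which positions carry the locked nucleic acid.
Tug1 gapmer: attcagtagacagcta
Negative control gapmer: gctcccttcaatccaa
Each was 16 bases long. The Tug1 gapmer held 6 G or C bases and the control 8, and the same base stood at 6 of the 16 positions. The RNA stretch that pairs fully with the Tug1 gapmer reads tagctgtctactgaat in DNA letters.

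Total counts ran from 12978548 to 13544337 per library, and 1 CPM (counts scaled to library size, here with edgeR's TMM factors) was worth 12.9 to 13.8 counts. Tug1 had 713, 672 and 718 counts with the control gapmer and 164, 152 and 165 with the Tug1 gapmer, so the targeted RNA followed the labels. Of the 14216 genes tested across the table, 61.7% were called, with an adjusted p under 0.05 by edgeR (quasi-likelihood test). The share called higher with the Tug1 gapmer was 30.8% and the share called lower 30.9%. Against that share, a single call says little about any 1 gene, and the size and direction carry the information below. The labels do not say whether the 3 samples of a group were separate cultures, so p-values measure the spread between these samples, which may be technical. In bulk RNA, fewer cells with a transcript and less of it per cell cannot be told apart. Group levels below are mean ± SD over 3 libraries (n = 3 throughout), and log2FC is the log2 fold change of the Tug1 gapmer group over the control gapmer group.

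Of the 10 genes, 6 passed the test, against 61.7% of all tested genes. Rnaseh2b, Rnaseh2a and Sfpq rose, and Pspc1, Xrn2 and Exosc10 fell. The other 4, Rnaseh1, Rnaseh2c, Xrn1 and Nono, did not pass. The groups' libraries did not overlap for the 6 genes that passed, against 65.6% of all tested genes. The median log2FC of the 10 genes was -0.02, beside 0.00 for all tested genes. The 6 calls held under every alternative scaling, test, filter and left-out library tried. The share of all genes called was 62.1% with a length offset (a trend on gene length removed from each library), 58.1% without Tug1 gapmer replicate 1, 57.0% without Tug1 gapmer replicate 3 and 51.7% at an adjusted p under 0.01. Under the other alternatives it lay between 34.5% (no filter on low counts) and 63.2%.

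**Figure D1:**
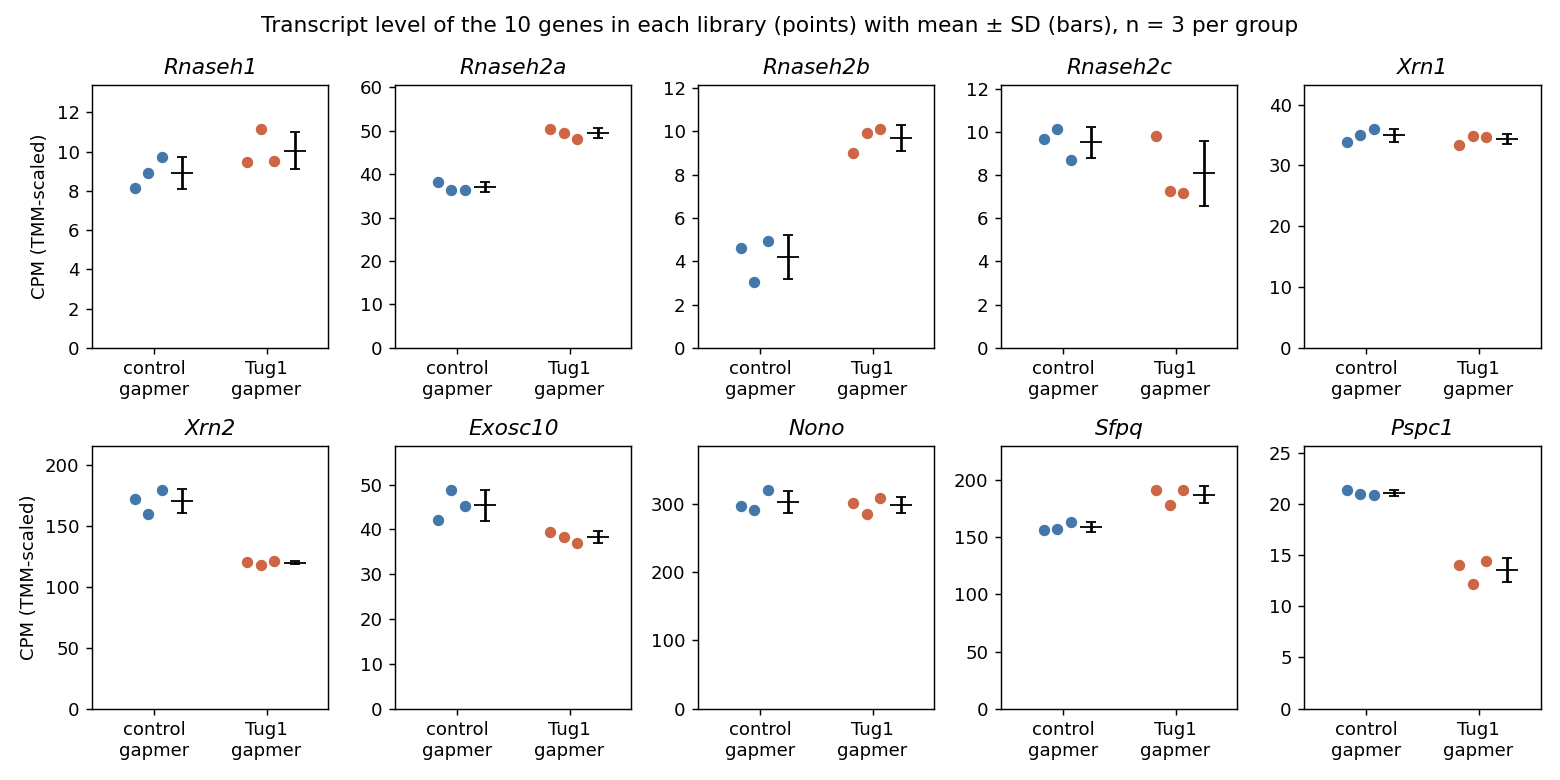
CPM on the TMM scale (linear axis from 0) of each of the 10 genes in the 3 control gapmer libraries (blue) and the 3 Tug1 gapmer libraries (orange), with the mean and SD of each group in black. The groups lie apart for Rnaseh2a, Rnaseh2b, Xrn2, Exosc10, Sfpq and Pspc1 and overlap for the other 4 genes.

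The RNase H genes come first because they encode the enzymes that cut gapmer-bound RNA. Rnaseh1 had 106, 115 and 126 counts in the control libraries and 131, 151 and 126 in the Tug1 gapmer libraries, each in the order of their replicate numbers as in all such lists here. Its groups overlapped once scaled, at 8.92 ± 0.794 CPM in controls and 10.1 ± 0.961 CPM with the Tug1 gapmer. The log2FC of 0.17 (SE 0.126, edgeR adjusted p 0.239) had a 95% interval from -0.09 to 0.44. The interval spans a small fall to a moderate rise of the transcript. In the GRCr8 annotation the gene Rnaseh1 overlaps by 32 bases a non-coding gene on the opposite strand, LOC134479353, which has no entry of that name among the counts.

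RNase H2 is a complex of 3 subunits that also removes single ribonucleotides from DNA. Its subunit A holds the active site, while B and C form the scaffold beside it. Rnaseh2a had 499, 469 and 470 counts in the control libraries and 696, 669 and 638 in the Tug1 gapmer libraries. All Tug1 gapmer values lay above all control values, at 36.9 ± 1.15 CPM in controls and 49.4 ± 1.14 CPM with the Tug1 gapmer. The rise was 1.34-fold, a log2FC of 0.42 (SE 0.064, edgeR adjusted p 5.65e-06).

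Rnaseh2b gave the largest change of the 10 genes. It had 60, 39 and 64 counts in the control libraries and 124, 134 and 134 in the Tug1 gapmer libraries. Every Tug1 gapmer library lay above every control, and control replicate 2 was the lowest of all. Its level was 4.19 ± 1.02 CPM in controls and 9.67 ± 0.602 CPM with the Tug1 gapmer. This was a 2.31-fold rise, or 1.21 on the log2 scale (SE 0.162, edgeR adjusted p 9.26e-07), and 6.13% of all tested genes had a larger absolute log2FC. Without control replicate 2 the log2FC was 1.02, and without control replicate 3 it was 1.34.

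Rnaseh2c did not pass the test. Its counts were 126, 131 and 113 in the control libraries and 135, 98 and 95 in the Tug1 gapmer libraries. Once scaled to library size, Tug1 gapmer replicate 1 lay within the control range and replicates 2 and 3 below it. The group values were 9.51 ± 0.726 CPM in controls and 8.07 ± 1.49 CPM with the Tug1 gapmer, a log2FC of -0.23 (SE 0.14, edgeR adjusted p 0.152; 95% interval from -0.52 to 0.06). Leaving out Tug1 gapmer replicate 1 took it to -0.40 and past the threshold (edgeR adjusted p 0.0242). With an offset for gene length it was at 0.01 (edgeR adjusted p 0.976), so neither a fall nor a lack of change is shown.

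Because the subunits belong to 1 complex, their counts were also compared within each library, where library scaling has no part. Of the summed counts of the 3 subunit genes, Rnaseh2b made up 8.76%, 6.10% and 9.89% in the control libraries and 13.0%, 14.9% and 15.5% in the Tug1 gapmer libraries. Rnaseh2c made up 18.4%, 20.5% and 17.5% in controls and 14.1%, 10.9% and 11.0% with the Tug1 gapmer. Rnaseh2a stayed between 72.6% and 74.3% in all 6 libraries. These are shares of counts and not of molecules, since transcript lengths were not given.

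The DNA before the 2 subunit genes that rose is shown because 1 of them shares it with another gene. In the RefSeq annotation of GRCr8, Rnaseh2a and Prdx2, which encodes the antioxidant enzyme peroxiredoxin 2, start back to back on opposite strands with 122 bases between them. Their annotated spans do not overlap. Prdx2 stood at 240 CPM in controls and 442 CPM with the Tug1 gapmer (means), a log2FC of 0.88 (SE 0.0462, edgeR adjusted p 2.48e-13), so both genes of the pair were higher. The stretch between the starts (chr19:40091084-40091205, GRCr8, + strand as for Rnaseh2a) and the 250 bases before Rnaseh2b (chr15:40717009-40717258, GRCr8, + strand) are given 5′ to 3′. Capitals mark matches to the motifs described after them, of which the shorter stretch held 0.
Rnaseh2a-Prdx2 stretch: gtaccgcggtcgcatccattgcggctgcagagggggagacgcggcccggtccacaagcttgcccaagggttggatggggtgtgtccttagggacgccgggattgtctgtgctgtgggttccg
Rnaseh2b upstream: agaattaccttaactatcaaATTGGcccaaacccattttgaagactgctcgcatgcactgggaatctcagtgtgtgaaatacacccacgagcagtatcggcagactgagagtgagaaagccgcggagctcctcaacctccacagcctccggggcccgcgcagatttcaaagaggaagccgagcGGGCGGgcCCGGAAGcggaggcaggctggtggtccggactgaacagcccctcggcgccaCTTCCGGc

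Both strands of the 250 bases before each of 33469 RefSeq genes of GRCr8 were searched for 6 short motifs, and all 10 genes had such a window. The windows of the 10 genes held 9 to 21 CG pairs (C followed by G), beside a median of 5 over all windows. The shares below are over windows not matched for this. The ETS letters CCGGAAG occurred in 3 of the 10 windows (Rnaseh1, Rnaseh2b and Xrn2) and in 7.27% of all windows. The CCAAT box occurred in 5 (Rnaseh1, Rnaseh2b, Xrn1, Nono and Sfpq) and in 34.0% of all windows. The SP1 letters GGGCGG occurred in 6 (Rnaseh1, Rnaseh2a, Rnaseh2b, Xrn1, Exosc10 and Pspc1) and in 30.5% of all windows. The match before Rnaseh2a, 132 bases from its start, lies in the span of Prdx2. The TATA letters TATAAA occurred in 1 (Rnaseh2c) and in 12.9% of all windows. For E2F, the search took TTGGCGC as a first form, TTCCCGC as another, TTCGCGC as the next and TTGCCGC as the last. Any of these occurred in 0 of the 10 windows and in 7.59% of all, and the YY1 letters AAGATGG in 0 and in 4.62%. The upstream window of Rnaseh2b held 2 ETS matches, 59 and 8 bases before the start, 1 SP1 match and 1 CCAAT box, with no matches overlapping. The last 7 bases of that window, which hold most of the nearer ETS match, lie inside the annotated span of Rnaseh2b. The windows of Xrn2, Sfpq and Pspc1 lie wholly inside the annotated spans of those genes, behind an earlier start. A match is a description of letters and not evidence of a bound factor.

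XRN1 and XRN2 are the exonucleases that degrade RNA from its 5′ end, XRN1 in the cytoplasm and XRN2 in the nucleus, where it also ends transcription. Xrn1 had 442, 451 and 467 counts in the control libraries and 460, 471 and 459 in the Tug1 gapmer libraries. The scaled values overlapped, at 34.9 ± 1.06 CPM and 34.3 ± 0.818 CPM. The log2FC was -0.03 (SE 0.0689, edgeR adjusted p 0.747; 95% interval from -0.17 to 0.12). With the length offset it was at -0.24 and passed the threshold (edgeR adjusted p 0.00392). In GRCr8 the gene Xrn1 overlaps by 156 bases a non-coding gene on the opposite strand, LOC120094234. That gene has an entry among the counts but is not among the tested genes, and its part in the value of Xrn1 was not tested.

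Xrn2 fell. It had 2246, 2067 and 2335 counts in the control libraries and 1659, 1600 and 1605 in the Tug1 gapmer libraries, with every Tug1 gapmer library below every control. Its level went from 171 ± 10.1 CPM to 120 ± 1.45 CPM, which is 70.2% of the control level. The log2FC was -0.51 (SE 0.0518, edgeR adjusted p 1.32e-08). Within libraries the ratio of Xrn1 to Xrn2 counts was 0.197, 0.218 and 0.200 in controls and 0.277, 0.294 and 0.286 with the Tug1 gapmer. This ratio, 1 of 8 compared, moved by 0.48 on the log2 scale (SE 0.0525), with no overlap between groups. The exact permutation test (two-sided) gave p = 0.1, the smallest that 3 libraries against 3 allow, and 0.114 adjusted over the 8 ratios.

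The genes that work with the XRN enzymes were read from a list of 20 decapping factors and XRN partners. Of these, 4 were higher, 8 lower and 8 did not pass, with a median log2FC of -0.06 beside 0.00 for all tested genes. The calls made up 60.0% of the list, beside 61.7% of all tested genes. The lowest members bind XRN2. Cdkn2aipnl and Cdkn2aip, which encode proteins that hold XRN2 through a shared domain, stood at -1.27 (SE 0.0973) and -0.78 (SE 0.0711) on the log2 scale. Cdkn2aipnl had 450, 481 and 473 counts in controls and 228, 220 and 158 with the Tug1 gapmer. Nkrf, which encodes another XRN2 partner with that domain, stood at -0.59 (SE 0.0683), from 45.4 ± 0.232 to 30.2 ± 1.63 CPM. Xrn2 and these 3 partners were all called lower, as were 30.9% of all tested genes. Nkrf was picked out after its value was seen, and the list as a whole lay near the share of all tested genes.

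On the decapping side, which opens the 5′ end of messenger RNA for XRN1, the genes moved apart. The catalytic subunit Dcp2 fell to 66.2% of the control level, a log2FC of -0.59 (SE 0.124). The helicase Ddx6, which activates decapping, rose from 85.3 ± 7.00 to 144 ± 2.39 CPM, a log2FC of 0.75 (SE 0.0574). The enhancer of decapping Edc3 rose by 0.43. Of the Lsm ring that binds RNA before decapping, Lsm3 was higher (0.42), while Lsm2 (-0.39), Lsm4 (-0.35) and Lsm5 (-0.34) were lower and Lsm1, Lsm6 and Lsm7 did not pass. The adjusted p in edgeR's quasi-likelihood test was under 0.05 for each gene named here as changed.

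EXOSC10 is a nuclease of the nuclear exosome, which degrades RNA from its 3′ end. Exosc10 had 549, 632 and 586 counts in the control libraries and 545, 519 and 489 in the Tug1 gapmer libraries. Once scaled to library size the groups lay apart, but narrowly, with 42.1 CPM in the lowest control and 39.5 CPM in the highest Tug1 gapmer library. The level went from 45.4 ± 3.41 to 38.3 ± 1.29 CPM, a log2FC of -0.25 (SE 0.0695, edgeR adjusted p 0.00386). Removing 1 library at a time gave values between -0.30 and -0.19, and the edgeR adjusted p was highest, at 0.0322, without control replicate 2.

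The other exosome genes were read from a list of 22 core subunits and cofactors. Of these, 5 were higher, 5 lower and 12 did not pass, a share of calls of 45.5% beside 61.7% of all tested genes. The median log2FC was -0.03. Exosc6, a subunit of the exosome ring, had the lowest value at -0.84 (SE 0.0826) and went from 48.4 ± 4.60 to 26.9 ± 2.71 CPM. Exosc2, a subunit of the cap on that ring, had the highest at 0.68 (SE 0.101) and went from 11.0 ± 0.384 to 17.6 ± 1.01 CPM. Rbm7 and Mphosph6, which encode nuclear cofactors, stood at -0.26 and -0.24, and the cytoplasmic helicase Skiv2l at 0.23. Dis3, which encodes another catalytic subunit, stood at -0.04 (edgeR adjusted p 0.71) and did not pass. With the length offset, at an adjusted p under 0.01, and without Tug1 gapmer replicate 3, the count of calls on this list was 6 in place of 10. Exosc1 (0.18, edgeR adjusted p 0.0393) lost its call with DESeq2, without the filter and without any of 4 libraries. Rbm7 lost its call with the length offset, and Mphosph6 with that offset, with library totals and without either of 2 libraries.

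**Figure D2:**
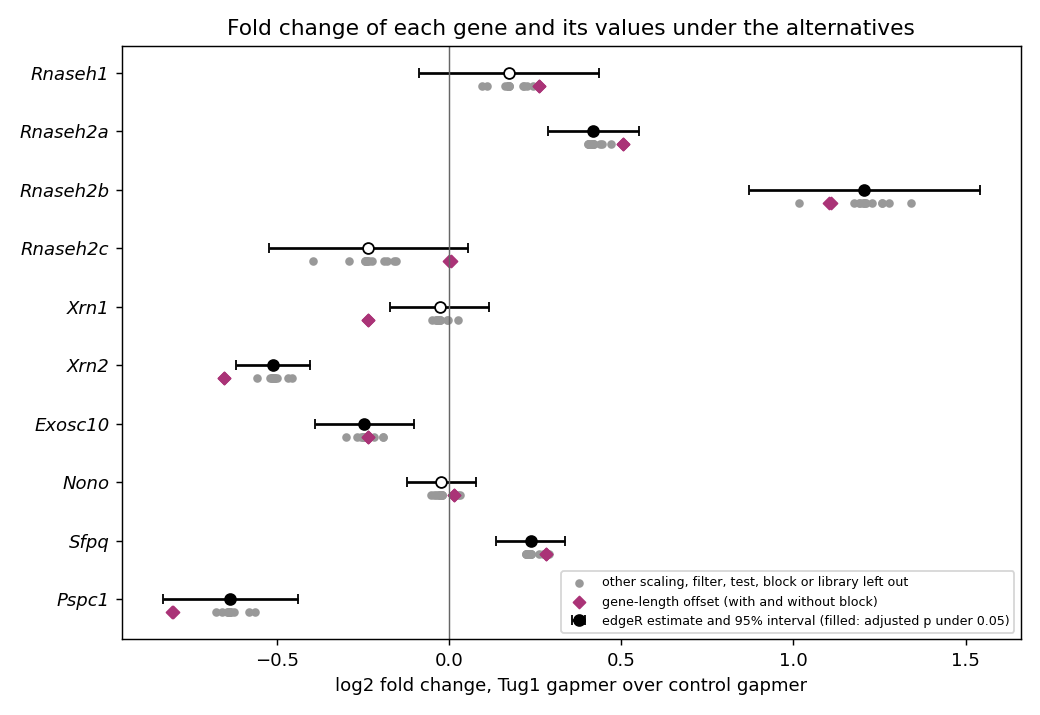
Log2FC of each of the 10 genes (horizontal axis, Tug1 gapmer over control gapmer) with its 95% interval in black, filled where the edgeR adjusted p was under 0.05. Grey points and purple diamonds give the same value under the alternatives. With the gene-length offset (diamonds) Xrn1 lies at -0.24 and Rnaseh2c at 0.01.

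NONO, SFPQ and PSPC1 form dimers with each other, so the balance of their transcripts was read as well as each level. Nono had 3873, 3763 and 4170 counts in the control libraries and 4161, 3859 and 4094 in the Tug1 gapmer libraries. The groups overlapped, at 303 ± 16.1 CPM in controls and 299 ± 12.1 CPM with the Tug1 gapmer. The log2FC was -0.02 (SE 0.0483, edgeR adjusted p 0.713; 95% interval from -0.12 to 0.08), and its sign was positive with library totals in place of TMM (0.03). Its interval was the narrowest of the 10.

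Sfpq rose by a small amount. It had 2037, 2032 and 2121 counts in the control libraries and 2647, 2416 and 2539 in the Tug1 gapmer libraries, with all Tug1 gapmer libraries higher. Its level went from 159 ± 3.97 to 187 ± 7.56 CPM, a 1.18-fold rise or 0.24 on the log2 scale (SE 0.0485, edgeR adjusted p 0.000197). In GRCr8 the gene Sfpq overlaps by 168 bases a pseudogene, LOC134486993, which has no entry of that name among the counts.

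Pspc1 fell the furthest of the 10 genes. It had 279, 271 and 270 counts in the control libraries and 194, 165 and 191 in the Tug1 gapmer libraries. No Tug1 gapmer library reached the lowest control. The level went from 21.1 ± 0.298 to 13.6 ± 1.19 CPM, which is 64.4% of the control level, and the log2FC was -0.64 (SE 0.0946, edgeR adjusted p 3.99e-06). In GRCr8, 2594 bases at its 3′ end overlap Mphosph8 on the opposite strand, and use of strand in counting is not given in the sources used here. Mphosph8 stood at 0.34 (SE 0.0702), opposite in sign to Pspc1, and its part in the value of Pspc1 was not tested.

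Within each library the 3 paraspeckle genes shifted against each other. Of their summed counts, Sfpq made up 32.9%, 33.5% and 32.3% in controls and 37.8%, 37.5% and 37.2% with the Tug1 gapmer. Pspc1 made up 4.51%, 4.47% and 4.12% in controls and 2.77%, 2.56% and 2.80% with the Tug1 gapmer. Nono made up 62.0% to 63.6% in controls and 59.4% to 60.0% with the Tug1 gapmer. The Sfpq to Pspc1 ratio of counts was 7.30, 7.50 and 7.86 in controls and 13.6, 14.6 and 13.3 with the Tug1 gapmer, a 1.83-fold shift (0.88 on the log2 scale, SE 0.0518). The Nono to Pspc1 ratio shifted by 0.62 (SE 0.0661) and the Nono to Sfpq ratio by -0.26 (SE 0.0272). None of the 3 ratios overlapped between groups, and each had the smallest exact permutation p that this design allows, 0.1 (two-sided, adjusted p 0.114 over 8 ratios).

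The same held for the RNase H2 ratios. Rnaseh2a to Rnaseh2b shifted by -0.82 (SE 0.225), Rnaseh2a to Rnaseh2c by 0.67 (SE 0.146) and Rnaseh2b to Rnaseh2c by 1.49 (SE 0.341) on the log2 scale. Each had an exact permutation p of 0.1. The ratio of Rnaseh1 to Rnaseh2a was the only one of the 8 whose groups overlapped, with a shift of -0.24 (SE 0.125; exact permutation p = 0.2, two-sided). Ratios of other gene pairs were not compared, so no share over pairs stands beside this. Among single tested genes, 65.6% did not overlap between groups. The ratios use the same counts as the fold changes above and are not separate support for a shift.

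**Figure D3:**
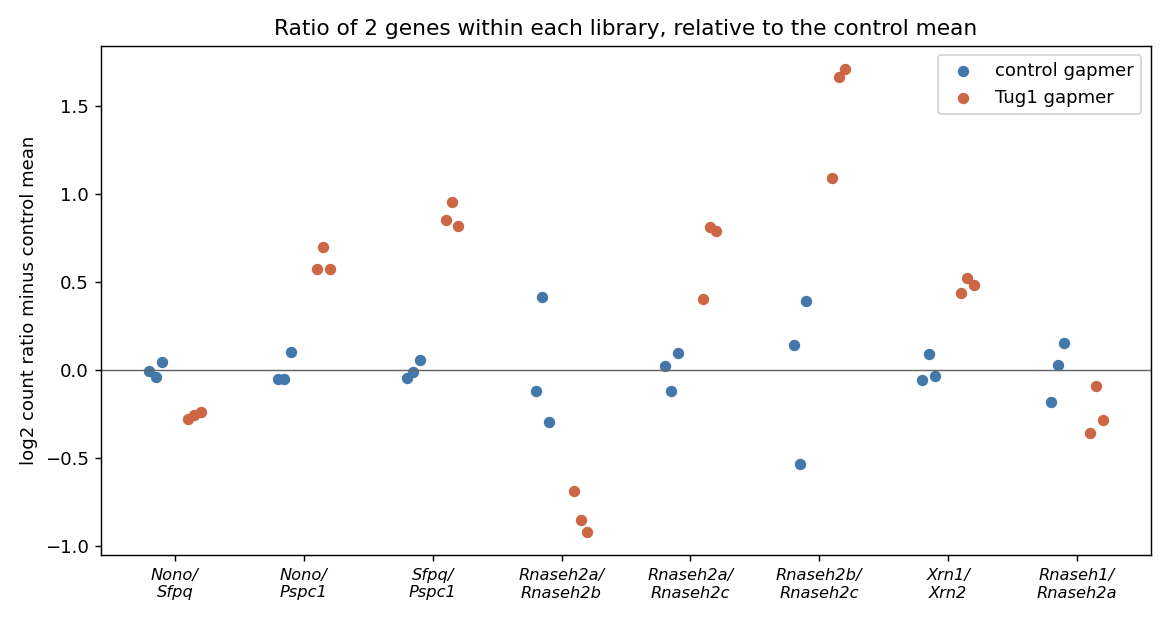
Log2 ratio of the counts of 2 genes in each library (vertical axis), set to 0 at the mean of the control gapmer libraries, for the 8 pairs compared. The 3 Tug1 gapmer libraries (orange) lie apart from the 3 control libraries (blue) in every pair but Rnaseh1/Rnaseh2a.

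Other proteins found in paraspeckles were read from a list of 35 genes, of which 10 were higher, 20 lower and 5 did not pass. That is 85.7% called, beside 61.7% of all tested genes, and the median log2FC was -0.16 beside 0.00. Passing the test depends in part on expression level, and neither this list nor the others were matched to all tested genes for level. Genes of 1 complex moved apart here too. Nudt21 and Cpsf6, which encode subunits of cleavage factor Im for messenger RNA 3′ ends, stood at -0.74 (SE 0.0659) and -0.62 (SE 0.0504), while Cpsf7, which encodes an alternative partner of Nudt21, stood at 0.59 (SE 0.0531). Cpsf7 had 984, 914 and 942 counts in controls and 1498, 1519 and 1442 with the Tug1 gapmer. The highest values were those of Ahdc1 (0.65) and Rbm12 (0.64), and the lowest those of Mex3a (-0.90) and Rbm4b (-0.79). Rbm14, which is known to be needed for paraspeckles, stood at -0.30.

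A further list held 13 proteins known to bind oligonucleotides or nucleic acids in cells. Of these, 2 were higher, 7 lower and 4 did not pass (69.2% called beside 61.7% of all tested genes, median log2FC -0.17 beside 0.00). Npm1, the nucleolar chaperone nucleophosmin, went from 722 ± 12.9 to 476 ± 12.8 CPM, a log2FC of -0.60 (SE 0.0418). Hmgb1 stood at -0.57 (SE 0.053). Ilf2, which encodes a subunit of a double-stranded RNA-binding complex, stood at -0.89 (SE 0.0609). Xrcc6, a subunit of the Ku complex, stood at 0.32, while its partner Xrcc5 stood at 0.00 (edgeR adjusted p 0.956) and did not pass.

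RNase H is 1 of several enzymes that remove RNA paired with DNA. A list of 17 genes linked to such RNA or to ribonucleotides in DNA was read, though not all of them remove the RNA themselves. Of these, 8 were higher, 7 lower and 2 did not pass (88.2% called beside 61.7% of all tested genes, median log2FC 0.07 beside 0.00). Ercc5 (0.65) and Top3b (0.45) were higher, and Samhd1 (-0.56), Aqr (-0.52) and Fancm (-0.38) lower. Fen1 and Lig1, which act after RNase H2 in removing ribonucleotides from DNA, stood at 0.32 and 0.21, and Pcna at -0.11 (edgeR adjusted p 0.121).

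**Figure D4:**
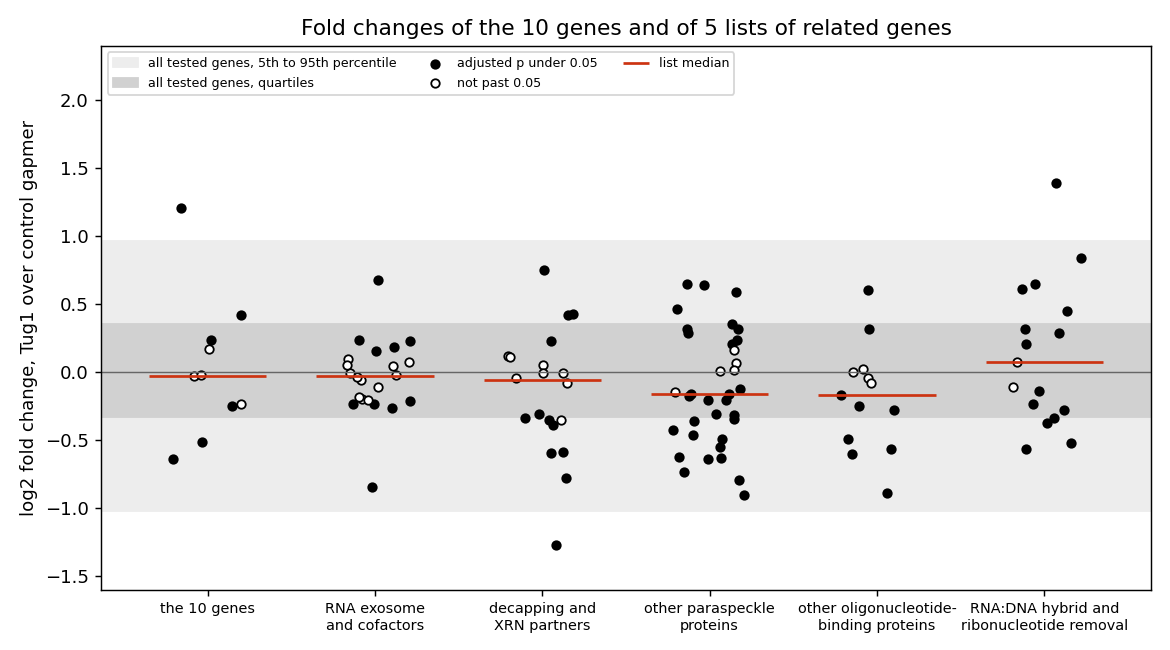
Log2 fold changes (vertical axis) of the 10 genes and of the genes on the 5 lists, filled where the edgeR adjusted p was under 0.05, with red bars at each median and grey bands for all tested genes. Members of every list lie on both sides of 0.

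Gene length moved with the comparison and is given beside the 10 genes. The median log2FC of tested genes ran from -0.21 in the lowest decile of annotated genomic span to 0.33 in the highest. Rnaseh2c lies in the lowest decile, and Rnaseh2b in decile 8, where the median was 0.10. Xrn2, Pspc1 and Xrn1 lie in decile 9, where the median was 0.18, and Xrn2 and Pspc1 stood far below it. With the length offset Xrn2 was at -0.65 and Pspc1 at -0.80, further from 0 than before. Rnaseh2b was at 1.10 and Rnaseh2a at 0.50. Xrn1, given above, was the only one of the 10 whose call this offset changed.

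**Figure D5:**
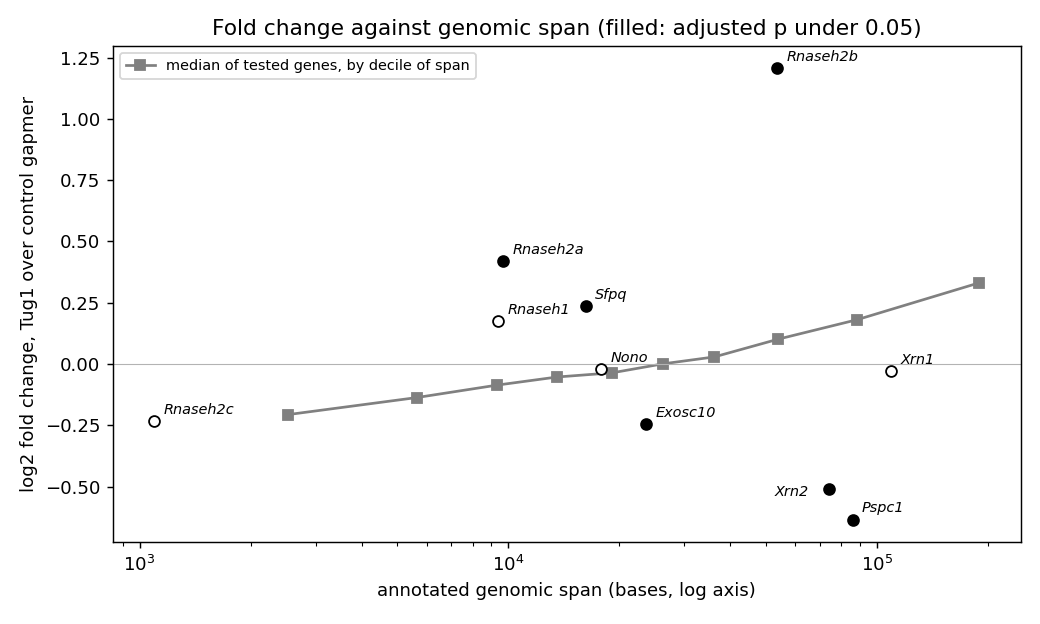
Log2 fold change (vertical axis) of the 10 genes against annotated genomic span in bases (log axis), with the median of tested genes in each decile of span in grey. Xrn2, Pspc1, Exosc10 and Xrn1 lie below the grey line at their span, and Rnaseh2a, Rnaseh1, Sfpq and Rnaseh2b above it.

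The genes most like Rnaseh2b across the 6 libraries were Nelfa, Rab5c and Gpr137b, with Pearson correlations of log2 CPM of 0.998, 0.998 and 0.997. The comparison covered 9077 genes with a mean of at least 10 CPM, of which 832 had a correlation above 0.95. All 6 libraries share the split into 2 groups, so the value mostly restates a group difference.

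The labelled cell type, cardiomyocyte, was checked against its markers. Of 12 cardiac markers 3 were tested, Tnnt2, Actn2 and Gata4, with a summed level of the whole list of 350 to 382 CPM in controls and 403 to 452 CPM with the Tug1 gapmer, nearly all from Tnnt2. Nppb was at 0 in all libraries, and Myh6, Myh7, Tnni3, Nppa, Ryr2 and Nkx2-5 had 0 to 4 counts. Gata4, a factor not limited to cardiomyocytes, had 137 to 179 counts, so most but not all of the cardiac markers were absent or near 0. Of 12 skeletal muscle markers 11 were tested, 10 higher and 1 lower with the Tug1 gapmer, and their summed level was 1025 to 1035 CPM in controls and 1525 to 1613 CPM with the Tug1 gapmer. Fibroblast and matrix markers summed to 44294 to 45652 CPM and 41601 to 44444 CPM. Of their 9 genes 8 were tested, 2 higher and 4 lower. Of 6 endothelial markers 1 was tested (Tek) and not called, and the list summed to 3.02 to 4.63 CPM in controls and 3.11 to 4.20 CPM with the Tug1 gapmer. Of 6 leukocyte markers 1 was tested (Cd68), which was higher, with Ptprc and Adgre1 at 0 and sums of 3.22 to 5.42 CPM and 6.74 to 9.02 CPM. Of the cardiac markers, Tnnt2 was called higher (log2FC 0.24, edgeR adjusted p 0.000291). Skeletal muscle markers, Cd68, Tnnt2 and the called fibroblast and matrix markers, which went both ways, thus moved with the group. The part of these markers in the values of the 10 genes was not tested.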

How the data were processed

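RNA from 6 H9c2 samples was sequenced, 3 per group. The authors deposited raw counts per gene, as the whole-number values show, with 1 column per sample. FastQC 0.11.7, fastp 0.14.1 and STAR 2.5 are named in the submitters' processing notes, while the counting tool, build, annotation, use of strand and treatment of shared reads are not given in the sources used here. The table held 0 unnamed entries and 0 unused columns. In R 4.3.3, genes passing edgeR's filter (minimum count 10, total 15) were kept, 14216 in all, and scaled by TMM. Group differences came from edgeR 4.0.16's two-sided quasi-likelihood test with a prior count of 0.125 and no block, with Benjamini-Hochberg adjustment over all tested genes. SE is the absolute log2 fold change over the square root of the F statistic. Count ratios of 8 fixed pairs were compared by exact permutation over samples.

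Alternatives were DESeq2 size factors, library totals, DESeq2 1.42.0, limma-voom (limma 3.58.1), no filter, a stricter one at a mean of 1 CPM, a threshold of 0.01, a block on replicate number, leaving out 1 library at a time, and an offset removing a lowess trend (span 0.3) on genomic span, which 92.0% of tested genes had in RefSeq's GRCr8 table. For ratios, 0.5 counts were added. Named genes were the 10 genes, Tug1, and up to 3 highest and 3 lowest called genes per list with no overlap between groups and a mean of 10 CPM or more, plus the 3 genes most like the member that changed most. Dis3, Nkrf, Lsm1, Lsm2, Lsm4 to Lsm7, Cpsf6, Rbm14, Xrcc5, Fen1, Lig1 and Pcna were chosen after their values were seen. Prdx2, Mphosph8, Mtor, Kat5 and Itgb1bp2 were chosen by their annotated position. Some genes named by the rule are not reported here. The correlation used log2 CPM with 0.5 CPM added. The 10 genes, the lists and the alternatives were chosen with earlier results of these data known. Counts were also simulated over 14216 genes, with the same dispersion for every gene. In them 67, 67 and 66 genes were changed by 0.3, 0.5 and 1 on the log2 scale. Of these, edgeR recovered 44.8%, 76.1% and 92.4%, and it called 0.0357% of the 14016 unchanged genes. In the data 61.7% of genes were called, a far larger share than was changed there, so these rates do not carry over to the data. The reads carry no molecular identifiers in the sources used here, so counts may not be independent molecules.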

Additional observations from a re-analysis of the deposited data

How the results depend on the processing

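The direction and call of Rnaseh2a, Rnaseh2b, Xrn2, Exosc10, Sfpq, Pspc1 and Tug1 were the same in each of 15 alternatives, and Rnaseh1 stayed positive and uncalled. The count of called genes among the 10 was 6 or 7. Rnaseh2c was at 0.00505 with the length offset and 0.000494 with the replicate block added, and lay from -0.40 to -0.15 over the fits with 1 library removed. Xrn1 was at 0.0253 with library totals, at -0.235126 with the length offset and at -0.235061 with the block added. Nono was at 0.0312 with library totals, 0.0146 with the length offset and 0.0152 with the block added, and lay from -0.0526 to 0.0247 over the fits with 1 library removed, being positive without control replicate 3 (0.0247) and without Tug1 gapmer replicate 2 (0.0119). Called exosome genes numbered 6 in place of 10 with the length offset, alone or with the block, and at an adjusted p under 0.01, and 6 to 12 when a library was left out. Other list counts stayed within 1.5 times, and all 8 ratios kept their sign. Called genes in all ran from 7353 to 8987. Apart from the stricter threshold, what causes these shifts was not tested. Replicate numbers did not pair the libraries (correlations of same-numbered deviations -0.0053, 0.0298 and 0.027). With the replicate block alone, 8848 genes were called and Rnaseh2b was at 1.21, and no call among the 10 changed. Depth limits Rnaseh2b, at 39 to 64 counts in controls.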
